A study of Homo sapiens with 12 samples.

Results

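Of the 12372 FOXA2 peaks called in SW620 cells, 2293 lay on H3K4me2 with no H3K27ac and no H3K4me3, which is 18.5% of the list (95% Wilson interval 17.9 to 19.2). These H3K4me2-only peaks were chosen by overlap within SW620: at least 1 bp shared with an H3K4me2 region, and no base shared with an H3K27ac or an H3K4me3 region. The same lists put 2914 SW620 FOXA2 peaks on H3K27ac without H3K4me3 (acetylated peaks), 1616 on H3K4me3 (promoter peaks) and 5549 on none of the 3 marks (unmarked peaks). Together with the SW480 list, the series holds 17579 FOXA2 peaks.

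FOXA2 is a forkhead transcription factor of the endoderm and liver. It belongs to the pioneer factors, which can bind their sites in closed chromatin and open them to other factors. Methylation of histone H3 at lysine 4 marks regulatory DNA. The dimethyl form covers promoters and enhancers, and the trimethyl form is concentrated at promoters. Acetylation at lysine 27 marks elements that are active. Sites with H3K4me2 but no acetylation are often described as primed enhancers, and H3K36me3 covers the bodies of transcribed genes.

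The series compared chromatin by ChIP-seq in SW480 and SW620, established human colorectal adenocarcinoma lines. The labels give Dukes' type B for SW480 and Dukes' type C for SW620. Both were untreated and grown in DMEM with fetal bovine serum and antibiotics. Each line gave 1 library for each of H3K4me2, H3K4me3, H3K27ac, H3K36me3 and FOXA2, and 1 input library. The lists hold positions (hg19, counted from 1) and no usable signal per region, and no gene annotation or genome of that build was used, so sites are given by position. The antibody libraries held 12791745 to 47867295 tags.

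With 1 library per group there was no test between the lines or between classes of peaks. Intervals of shares are 95% Wilson intervals, and those of medians are 95% intervals from order statistics. They cover counting error only, and peaks of 1 library are not replicates.

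In SW480, the H3K4me2-only peaks had H3K4me2, H3K27ac or H3K4me3 at a share near that of the whole SW620 FOXA2 list. Of the 2293 peaks, 1470 (64.1%, 62.1 to 66.0) overlapped none of these 3 marks of SW480, beside 66.8% of all SW620 FOXA2 peaks. H3K4me2 of SW480 covered 772 of them (33.7%, 31.8 to 35.6), beside 30.2% of all SW620 FOXA2 peaks. The share of all peaks is an average over very unlike classes, since 93.3% of the unmarked peaks and 12.4% of the promoter peaks had none of the 3 marks in SW480.

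The acetylated peaks were set beside them mark by mark, and among these 3 marks the gap between the classes was widest for SW480 acetylation. H3K27ac of SW480 overlapped 328 of the H3K4me2-only peaks (14.3%, 12.9 to 15.8) and 1275 of the acetylated ones (43.8%, 42.0 to 45.6). Over all SW620 FOXA2 peaks the share was 24.3%. For SW480 H3K4me2 the gap was narrower, 33.7% against 45.0% (43.2 to 46.8). For both marks the intervals of the 2 classes did not overlap. The 2 classes were set apart by H3K27ac of SW620, so the choice of peaks by this same mark bears on the acetylation gap. SW620 H3K4me2 lay on all H3K4me2-only peaks by the choice, and on 2537 of the 2914 acetylated ones (87.1%). The part of the choice in these gaps was not tested.

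H3K4me3 in SW480 was rare in both classes. H3K4me3 of SW480 overlapped 149 H3K4me2-only peaks (6.50%, 5.56 to 7.58) and 5.46% of the acetylated peaks (4.69 to 6.34), whose intervals overlap, beside 13.0% of all SW620 FOXA2 peaks. Unmarked peaks lay on it in 0.414% of cases.

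**Figure D1:**
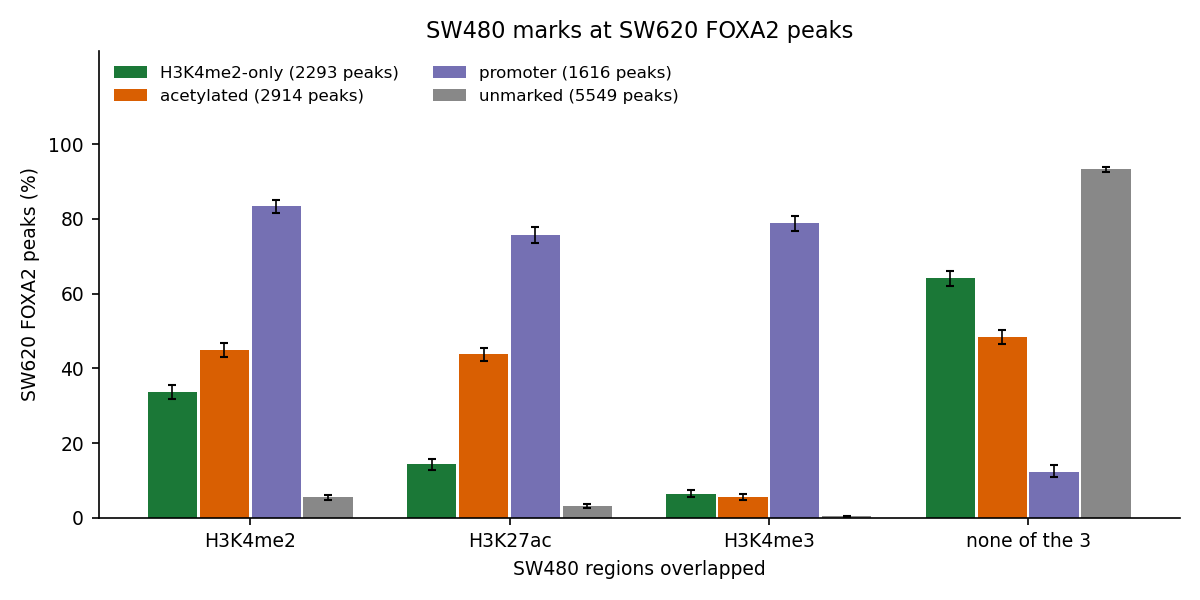
Share of SW620 FOXA2 peaks (%, y axis) that overlap SW480 H3K4me2, H3K27ac or H3K4me3 regions, or none of the 3 (x axis), for the 4 classes of SW620 FOXA2 peaks. Bars are shares and error bars 95% Wilson intervals; H3K4me2-only peaks stand at 33.7% on SW480 H3K4me2 and at 14.3% on SW480 H3K27ac, where acetylated peaks stand at 45.0% and 43.8%.

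Sorted by their SW480 state, the H3K4me2-only peaks formed 5 groups. Besides the 1470 with none of the 3 marks, 408 (17.8%) had H3K4me2 as their one mark in SW480, so that their state was the same in both lists. A further 266 (11.6%) had SW480 H3K27ac without H3K4me3, 62 (2.70%) had both, and 87 (3.79%) had SW480 H3K4me3 without H3K27ac. Among acetylated peaks, H3K4me2 alone in SW480 was less frequent, at 7.45% (6.55 to 8.46) against 17.8% (16.3 to 19.4).

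The 328 peaks acetylated in SW480 were therefore called without acetylation in SW620. The SW620 H3K27ac library had 27.5% of its 47867295 tags in regions, and the SW480 library 58.5% of 34224728 tags. Likewise the SW620 H3K4me3 library had 52.0% of 12791745 tags in regions and the SW480 library 73.0% of 16400013. The part of these library differences in the 328 and the 149 peaks was not tested. In SW620 an H3K27ac region lay within 1 kb of 44 of the 328, and an H3K4me3 region within 1 kb of 23 of the 149.

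These groups differed in more than their SW480 state. The peaks with both H3K27ac and H3K4me3 in SW480 lay in wide SW620 H3K4me2 regions, with a median of 2276 bp, against 1259 bp for the peaks with none of the marks in SW480. In 66.1% of the 62 cases (53.7 to 76.7) that region was free of SW620 H3K27ac and H3K4me3 along its whole length, against 93.2% (91.8 to 94.4) of the peaks unmarked in SW480. The 87 peaks with SW480 H3K4me3 and no acetylation lay far from acetylated chromatin of SW620, at a median distance of 91288 bp from the nearest H3K27ac region. For the 266 peaks with SW480 H3K27ac alone or with H3K4me2 that distance was 20732 bp.

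Peaks called in both lines were few. A FOXA2 peak of SW480 overlapped 36 of the H3K4me2-only peaks (1.57%, 1.14 to 2.17), beside 1.91% of all SW620 FOXA2 peaks, 1.34% of the acetylated (0.981 to 1.82) and 2.60% of the unmarked ones (2.21 to 3.05). Of the 36 peaks, 21 lay on SW480 H3K4me2, 9 on SW480 H3K27ac, and 13 on none of the 3 marks there. Within the SW620 list 34 of the 36 were among the first-listed 50%, and 25 among the first 10%. The same held widely: of all 236 SW620 FOXA2 peaks on an SW480 peak 180 (76.3%) were in the first-listed 50% and 101 in the first 10%, and of the 39 acetylated ones 34 and 25. With that first-listed 50% alone, 2.60% of the H3K4me2-only peaks overlapped an SW480 peak. The SW480 FOXA2 library had 0.59% of its 19473583 tags in 5207 peaks and the SW620 library 2.25% of 18036456, and the part of this difference in the overlap was not tested.

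The first 5 of the 36 in list order show these states. The peak on chromosome 12 from 26922129 to 26922447 is the 3rd row of the whole list. It overlapped the edge of a 1509 bp H3K4me2 region of SW620, with 744 bp between centres. In SW480 it had H3K4me2 and a FOXA2 peak but no acetylation. The peaks on chromosome 10 from 126069550 to 126069868 and on chromosome 20 from 4850204 to 4850522 had that same SW480 state. The peaks on chromosome 8 from 129189154 to 129189472 and on chromosome 20 from 21115591 to 21115909 were acetylated in SW480 and not in SW620, with FOXA2 and H3K4me2 in both.

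Those 2 peaks also head the list of peaks acetylated in SW480. The next in order lay on chromosome 8 from 129179649 to 129179967, on chromosome 3 from 193849012 to 193849330 and on chromosome 8 from 102373137 to 102373455. None of these 3 overlapped an SW480 FOXA2 peak. The nearest SW620 H3K27ac region was 38675 bp away from the first, 1587 bp from the second and 153257 bp from the last, so that the missing acetylation in SW620 ran from a near miss to a wide gap.

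H3K36me3 was rare at H3K4me2-only peaks. In SW620 it overlapped 37 of them (1.61%, 1.17 to 2.22), beside 3.31% of all SW620 FOXA2 peaks and 5.08% of the acetylated ones (4.34 to 5.94). Among the first-listed 50% of the list the share was 0.916%. Promoter peaks stood at 2.29% (1.67 to 3.14) on SW620 H3K36me3, and their interval overlaps that of the H3K4me2-only peaks. In SW480 H3K36me3 overlapped 78 H3K4me2-only peaks (3.40%, 2.73 to 4.23), beside 4.26% of all SW620 FOXA2 peaks and 2.85% of the promoter peaks (2.14 to 3.78). In all, 22 peaks had H3K36me3 in both lines, 56 in SW480 alone and 15 in SW620 alone. The SW480 H3K36me3 list is the longer one, with 52664 regions against 45466.

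The marked stretch around these peaks was short. At the peak centre, H3K4me2 of SW620 covered 93.8% of positions, which the choice of peaks sets. At 1 kb to the left and right the share was 27.7% and 28.0%, and at 2 kb it was 6.80% and 8.11%, close to the 6.59% and 7.06% at 5 kb. Around acetylated peaks, SW620 H3K4me2 still covered 52.5% and 52.2% at 1 kb and 21.1% and 20.04% at 2 kb. Both classes were chosen by SW620 marks, so this contrast describes the choice as well as the sites. SW620 H3K4me2 regions without H3K27ac, H3K4me3 or a FOXA2 peak were also narrow, with a median of 1255 bp against 2041 bp for all.

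SW480 H3K4me2 was centred on the same positions at a lower level, 31.8% at the centre, 13.1% and 14.4% at 1 kb and 6.15% and 6.19% at 2 kb. SW480 H3K27ac covered 13.5% at the centre and 5.06% and 4.97% at 5 kb. SW620 H3K27ac, absent at the centre by the choice of peaks, covered 3.45% and 4.14% at 5 kb. For acetylated peaks it was 16.1% and 16.3% at that distance, where the choice of peaks by this same mark also bears on the gap.

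**Figure D2:**
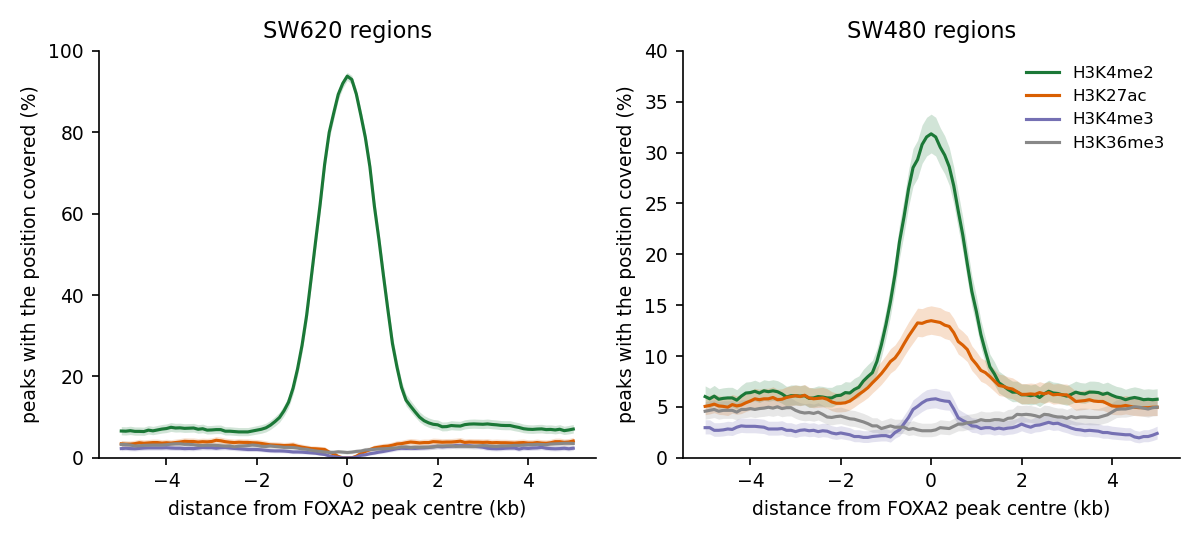
Share of the 2293 H3K4me2-only SW620 FOXA2 peaks (%, y axis) whose position at a given distance from the peak centre (kb, x axis) is covered by a histone region of SW620 (left, axis to 100%) or SW480 (right, axis to 40%). Lines are shares in steps of 100 bp and bands 95% Wilson intervals; SW620 H3K4me2 falls from 93.8% at the centre to under 10% at 2 kb, and SW480 H3K4me2 and H3K27ac peak at the same point at 31.8% and 13.5%.

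The peaks lay in 2262 different H3K4me2 regions, so most regions held 1 peak. In 34 regions there were 2, the most found in any, and 3 peaks touched 2 overlapping or adjacent regions. The regions were narrow, with a median of 1491 bp and quartiles of 1001 and 1836.5 bp, where all SW620 H3K4me2 regions had a median of 2041 bp and those with acetylated FOXA2 peaks one of 2247 bp. The smallest width in the list, 1001 bp, was held by 27.6% of the regions with H3K4me2-only peaks and by 16.1% of all H3K4me2 regions. This width is about the region size set for the caller.

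For 2084 of the peaks (90.9%) the whole H3K4me2 region was free of SW620 H3K27ac and H3K4me3. The other 209 lay in a region that touched at least 1 of these marks away from the peak. Such regions were wider, with a median of 3198 bp against 1279 bp for the free ones. Free regions without an SW620 FOXA2 peak were also narrow, with a median of 1255 bp. Of the 204 regions with an H3K4me2-only peak that were not free, 88 touched H3K27ac only, 30 touched H3K4me3 only and 86 touched both.

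Just inside the rule were 47 peaks that had H3K27ac or H3K4me3 within 100 bp, and 80 whose overlap with H3K4me2 was at most 100 bp. Just outside it were 96 peaks, of 4099 on H3K4me2 with another mark, that shared at most 100 bp with H3K27ac or H3K4me3, and 42 unmarked peaks with H3K4me2 within 100 bp. The median distance of the H3K4me2-only peaks from SW620 H3K27ac was 31888 bp, with quartiles of 9417 and 91227 bp. For 150 peaks (6.54%) it was at most 1 kb, and for 524 (22.9%, 21.2 to 24.6) over 100 kb. Of the unmarked peaks 36.6% (35.4 to 37.9) were that far away.

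H3K4me2-only peaks were in excess close to the centres of their H3K4me2 regions, though most lay farther out, with a median of 256 bp between centres. The authors' caller had moved each region onto its most likely nucleosome-free stretch, per the file headers, so the region centre was set from the H3K4me2 library alone. How the ends of stitched regions were set is not stated, so in wider regions the midpoint used here need not be that stretch. The choice of peaks by overlap limits how far a peak can lie from the centre of its region. The part of the choice of peaks in the excess was not tested. The centres were less than 100 bp apart for 716 of the 2293 peaks (31.2%, 29.4 to 33.2). Since every region reaches at least 500 bp from its centre, steps of equal length up to there can be compared. The next steps of 100 bp held 278, 258, 287 and 237 peaks, so the first held 3.02 times as many as the last. In regions of the smallest width this ratio was 2.17, with 29.9% (26.5 to 33.6) of 625 peaks less than 100 bp away. In wider regions the ratio was 3.50, with 31.7% (29.5 to 34.0) of 1668 peaks, so the intervals of the shares overlap.

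The same excess near the centre was present in the other classes. Over all 6392 SW620 FOXA2 peaks on SW620 H3K4me2, 26.6% lay less than 100 bp from the centre. The share was 24.4% (22.8 to 26.1) for the 2537 acetylated peaks on H3K4me2 and 23.3% (21.3 to 25.5) for the 1562 promoter peaks on it, both below the H3K4me2-only peaks. Their regions were wider, however, and relative to region width the order was reversed, with overlapping intervals. With 0 for the centre of a region and 1 for its edge, the median position was 0.354 (0.327 to 0.384) for H3K4me2-only, 0.329 (0.313 to 0.344) for acetylated and 0.318 (0.288 to 0.342) for promoter peaks. When the peak centre had to lie in the region, the median for H3K4me2-only peaks was 0.322 (0.302 to 0.345). The other 2 classes are not given at that setting, so the reversed order holds for the overlap of 1 bp only. The ratio of the first to the fifth step was 2.58 for acetylated and 4.39 for promoter peaks. The lower share of acetylated peaks holds for H3K4me2 centres only. Measured from the centres of SW620 H3K27ac regions, 31.2% (29.6 to 32.9) of the 2914 acetylated peaks lay less than 100 bp away, with a ratio of 4.46.

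**Figure D3:**
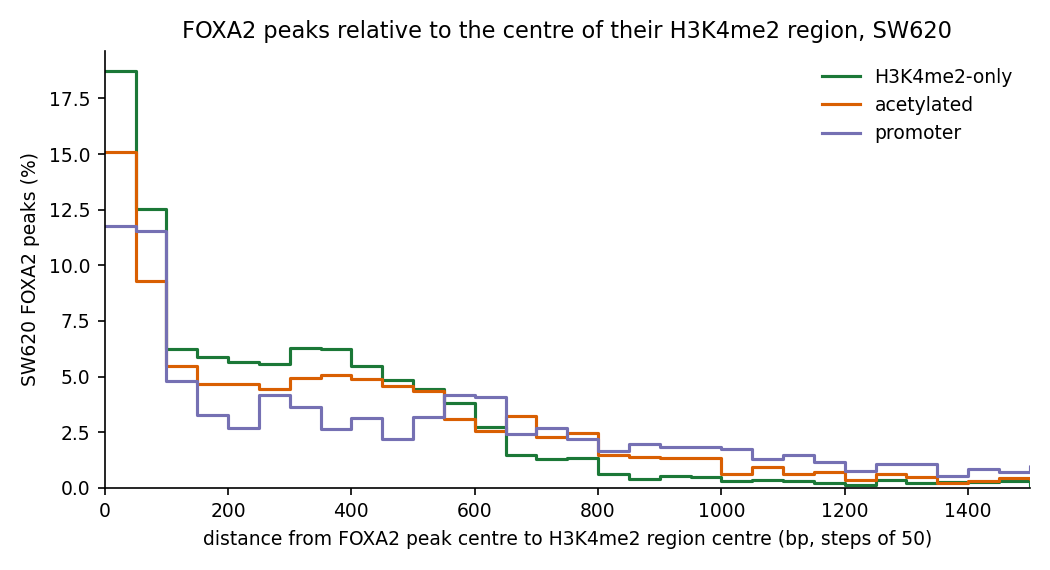
Distance from the FOXA2 peak centre to the centre of its SW620 H3K4me2 region (bp, x axis, steps of 50 bp) against the share of peaks (%, y axis), for H3K4me2-only peaks and for the acetylated and promoter peaks that overlap SW620 H3K4me2. All 3 lines are highest in the first 100 bp, which hold 31.2%, 24.4% and 23.3% of the peaks. The H3K4me2-only line then stays between 5.58% and 6.28% per step up to 400 bp and falls to 2.75% at 600 to 650 bp and 0.611% at 800 to 850 bp.

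Among the H3K4me2-only peaks the central position was held by 31.7% (28.5 to 35.1) where SW480 had H3K4me2 and by 31.0% (28.7 to 33.3) where it had none, with overlapping intervals. It was 35.5% (32.2 to 38.9) in the first-listed part of 3 equal parts of these peaks, 30.8% in the middle and 27.5% (24.4 to 30.7) in the last. Peaks fell to the left of the centre 1148 times and to the right 1139 times. The centres of SW480 regions gave a like value: of the 772 peaks on SW480 H3K4me2, 32.9% (29.7 to 36.3) lay less than 100 bp from the SW480 centre, beside 23.8% for all SW620 FOXA2 peaks on SW480 H3K4me2. Of these 772 peaks, 21 overlapped an SW480 FOXA2 peak.

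The centres of the same region in both lines were compared in turn, over H3K4me2 regions free of the other 2 marks in SW620 and overlapping SW480 H3K4me2. They were less than 100 bp apart in 41.9% (38.3 to 45.6) of 694 regions with an SW620 FOXA2 peak and in 44.1% (42.7 to 45.5) of 4768 without one. These intervals overlap.

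Seen from the H3K4me2 regions, FOXA2 peaks were found in a minority. Of the 11874 SW620 H3K4me2 regions free of SW620 H3K27ac and H3K4me3, 2058 held an SW620 FOXA2 peak, which is 17.3%, beside 17.5% of all 35114 SW620 H3K4me2 regions. Regions without SW480 H3K4me2 held one in 21.3% of 6412 cases (20.3 to 22.3), and regions with SW480 H3K4me2 in 12.7% of 5462 (11.8 to 13.6). Counting the first-listed 50% of the FOXA2 list alone, the shares were 12.5% and 6.96%.

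The difference was present at each width. Wider regions held a peak more often, and the regions without SW480 H3K4me2 were the narrower ones, with a median of 1251 bp against 1511 bp. In regions of 1001 to 1255 bp the shares were 17.4% without and 10.6% with SW480 H3K4me2. From 1257 to 1593 bp they were 23.1% and 11.5%, and from 1595 to 5609 bp 33.1% (30.4 to 36.1) and 15.9% (14.4 to 17.6). In each of the 3 width classes the intervals did not overlap.

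**Figure D4:**
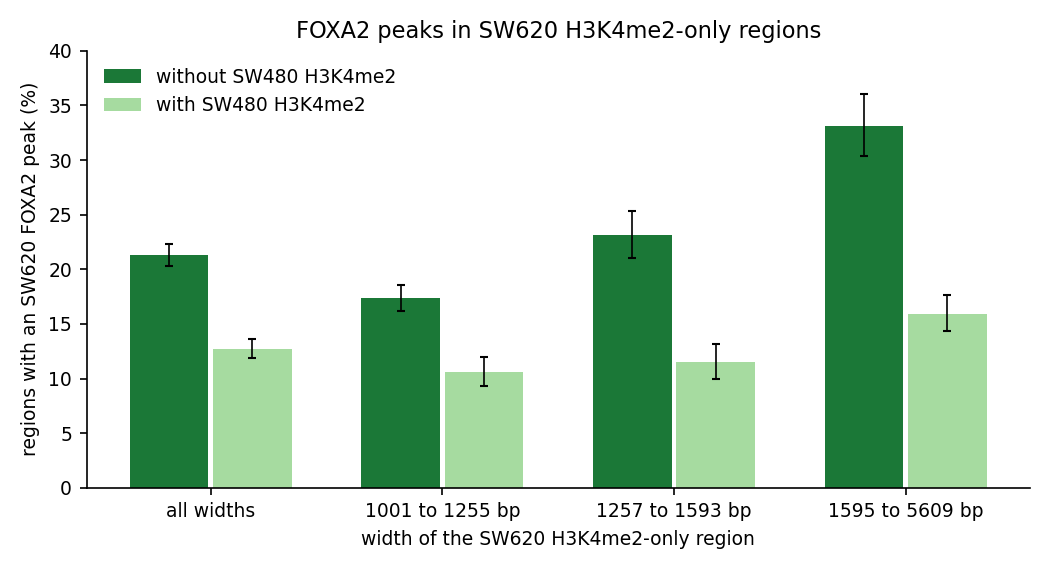
Share of SW620 H3K4me2 regions free of H3K27ac and H3K4me3 that hold an SW620 FOXA2 peak (%, y axis), over all widths and in 3 width classes (x axis), for regions without and with SW480 H3K4me2. Bars are shares and error bars 95% Wilson intervals; in each width class the regions without SW480 H3K4me2 are higher, reaching 33.1% against 15.9% in the widest.

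The SW480 state of these regions gave a finer order. FOXA2 peaks were present in 21.3% (20.3 to 22.4) of the 6230 regions with none of the 3 marks in SW480, in 18.0% (16.0 to 20.1) of the 1345 with SW480 H3K27ac and no H3K4me3, and in 14.4% (13.1 to 15.9) of the 2507 with H3K4me2 alone. Where SW480 had H3K4me3 the shares were lowest, 7.44% (5.96 to 9.25) of 981 regions without SW480 H3K27ac and 6.54% (5.03 to 8.45) of 811 with it. Those 2 did not differ beyond their intervals. The median widths of the regions, in the same order, were 1251, 1511, 1327, 1503 and 1643 bp. The shares by SW480 state were not compared at equal width. Regions with a FOXA2 peak overlapped SW480 FOXA2 in 1.99% (1.47 to 2.69) of cases and regions without one in 0.621% (0.484 to 0.797).

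In the order of the SW620 list, H3K4me2-only peaks stood between acetylated and unmarked ones. The number in each peak's name ran with the list order on all 23 chromosomes with 100 peaks or more (Spearman's rho 0.993 to 0.996, as a description), but no source used here says whether strong peaks come first. H3K4me2-only peaks lay in the first-listed 50% in 57.1% of cases (55.1 to 59.1), acetylated peaks in 61.3% (59.5 to 63.1), promoter peaks in 49.7% and unmarked peaks in 41.2% (39.9 to 42.5). Among 10 equal parts of the list they made up 21.2% of the first, 24.7% of the second and 11.5% (9.82 to 13.4) of the last.

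**Figure D5:**
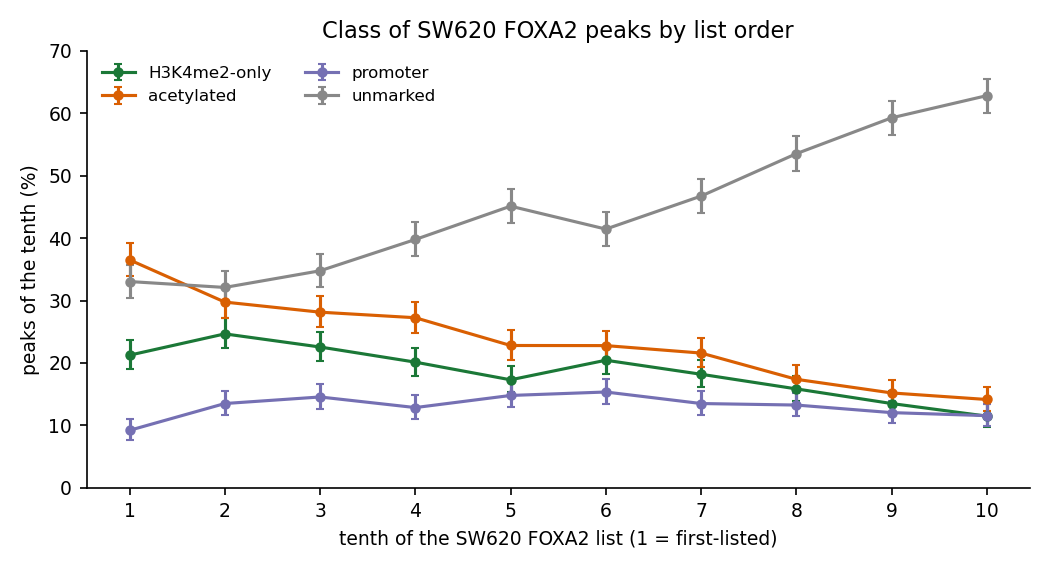
Share of each class (%, y axis) in 10 equal parts of the SW620 FOXA2 list (x axis, 1 is the first-listed part). Points are shares and error bars 95% Wilson intervals; H3K4me2-only peaks fall from 24.7% in part 2 to 11.5% in part 10, while unmarked peaks go from 33.0% in part 1 to 62.8% in part 10.

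The first H3K4me2-only peaks of the list included 3 from a single stretch of chromosome 8. After the chromosome 12 peak at 26922129 came one on chromosome 8 from 129597363 to 129597681, which touched 2 H3K4me2 regions and lay 189 bp from SW620 H3K27ac, with none of the 3 marks in SW480. The chromosome 8 peak at 129189154, described above, followed. The fourth, on chromosome 8 from 129209232 to 129209550, was unmarked in SW480, and the fifth was the chromosome 10 peak at 126069550. Of the first 50 H3K4me2-only peaks 7 were on chromosome 8, and of the first 100 it was 8, against 102 of all 2293. Chromosome 8 held 493 of all 12372 SW620 FOXA2 peaks. These counts were made after their values were seen. The first-listed peaks of all classes were not counted by chromosome. Going by the numbers in peak names, row 15 of the whole list was peak 4 of chromosome 8, and row 71 was peak 10. The early place of chromosome 8 was thus not shown to be particular to H3K4me2-only peaks.

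The 5 peaks farthest from SW620 acetylation had no SW480 call on them, as had 64.1% of all H3K4me2-only peaks for the 3 marks. They lay between 1409 and 1776 kb from the nearest H3K27ac region, and none overlapped H3K4me2, H3K27ac, H3K4me3, H3K36me3 or FOXA2 of SW480. Their positions were on chromosome 16 from 61835674 to 61835992, chromosome 4 from 59615523 to 59615841, chromosome 11 from 38213644 to 38213962, chromosome 2 from 146557944 to 146558262 and chromosome 13 from 66159603 to 66159921. The chromosome 16 peak was not far from a promoter mark, with SW620 H3K4me3 at 19348 bp. Their places in the list ran from 4224 to 12154.

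The 5 widest H3K4me2 regions with such a peak and no H3K27ac or H3K4me3 in SW620 spanned 3565 to 4349 bp. The widest, on chromosome 22 from 30096869 to 30101217, held no histone or FOXA2 region of SW480, and its FOXA2 peak stood 1686 bp from the centre. On chromosome 6 the region from 43668700 to 43672914 had H3K4me2 alone in SW480. The region on chromosome 22 from 39647551 to 39651649 was acetylated in SW480 and held 2 FOXA2 peaks in SW620.

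The other 2 differed again in SW480. The one on chromosome 20 from 56192416 to 56196446 had H3K4me2, H3K4me3 and a FOXA2 peak in SW480, and its SW620 FOXA2 peak was 53 bp from the centre. The one on chromosome 2 from 238640408 to 238643972 had H3K36me3 in both lines.

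The regions with 2 H3K4me2-only peaks were also taken by width. In the 10 widest, the peak centres were 782 to 1497 bp apart, where the caller kept peaks of this library at least 636 bp apart. Of these 10, 7 were free of SW620 H3K27ac and H3K4me3. The chromosome 22 region at 39647551 was one, and another, on chromosome 3 from 159499454 to 159502428, had no region of any SW480 list. The widest of the 10, on chromosome 10 from 72430443 to 72435597, touched all 4 histone marks in both lines.

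Another 4 of the free regions had H3K4me2 but no H3K4me3 in SW480. On chromosome 10 from 29945604 to 29948974 and on chromosome 3 from 194752777 to 194756083 the SW480 chromatin was acetylated. On chromosome 6 from 21381620 to 21384804 an SW480 FOXA2 peak was present, and on chromosome 10 from 52363213 to 52366303 H3K4me2 was the only SW480 mark. The last free region, on chromosome 10 from 101280047 to 101283539, had H3K4me2 and H3K4me3 in SW480. The remaining 2 of the 10, on chromosome 7 from 47419356 to 47423582 and chromosome 13 from 26525921 to 26529365, touched SW620 H3K27ac and held a further FOXA2 peak there.

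H3K4me2-only peaks were otherwise scattered. The next SW620 FOXA2 peak of any class was within 10 kb for 20.2% of them (18.6 to 21.9), as for 20.1% of the unmarked peaks, against 32.4% (30.7 to 34.1) of the acetylated ones. An acetylated FOXA2 peak was within 100 kb for 29.5% (27.7 to 31.4), against 22.3% (21.3 to 23.5) of the unmarked peaks. For promoter peaks this share was 32.2% (30.0 to 34.6), with an interval that overlaps, and for acetylated peaks 56.6% (54.8 to 58.4). By windows of 1 Mb, 1341 of the 2445 windows with an SW620 FOXA2 peak held at least 1 H3K4me2-only peak and 34 held at least 5.

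The fullest windows had 7 each. On chromosome 20 between 50 and 51 Mb they were 7 of 15 SW620 FOXA2 peaks, and on chromosome 16 between 68 and 69 Mb 7 of 22. Of the windows with 6, one on chromosome 8 between 61 and 62 Mb had 9 FOXA2 peaks and one on chromosome 9 between 79 and 80 Mb had 10, none of them acetylated. Other windows with 6 did hold acetylated peaks: 1 on chromosome 6 from 170 Mb, 4 on chromosome 13 from 110 Mb, and 2 each on chromosome 10 from 79 and 123 Mb. The windows with 7 held 2 on chromosome 20 and 3 on chromosome 16. None of the 3 SW480 marks lay on 3 of the 6 peaks on chromosome 8 and on all 6 on chromosome 9. These windows were picked after their values were seen.

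By chromosome, H3K4me2-only peaks made up between 14.5% of the FOXA2 peaks on chromosome 21 and 23.5% on chromosome 14, leaving out chromosome Y with 0 of 18. The intervals of chromosomes 6 (22.8%, 19.6 to 26.3) and 14 (19.1 to 28.5) lay above the 18.53% of the whole list. Those of chromosome 12 (15.2%, 12.4 to 18.495) and chromosome Y (up to 17.6%) lay below it. Chromosome Y held only 1 SW620 H3K4me2 region free of SW620 H3K27ac and H3K4me3, against 522 on chromosome 12. These chromosomes were picked after their values were seen, and the intervals are not adjusted for the number of chromosomes.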

How the data were processed

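Per the file headers, the authors ran HOMER findPeaks on every antibody library with that line's own input as control: histone marks in the histone style (size 1000 bp, 4-fold over input and local background), stitched and centred on the likeliest nucleosome-free stretch, and FOXA2 in the factor style (2-fold), centred on the highest pile-up, both at a false discovery rate of 0.001. The submitters' processing notes name the build hg19. No aligner is named in the sources used here. The deposited score is 1 in every row of the 10 lists, so the deposited start and end positions were the values used. Total tags and shares of tags in regions come from the file headers. Row numbers equalled the header totals in all 10 lists.

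Overlap means at least 1 bp. A peak on 2 H3K4me2 regions was placed by the nearer centre. SW620 peaks are 319 bp wide and SW480 peaks 127 bp. Overlaps were computed in Python 3.11.15 with numpy 2.4.6 and pandas 2.3.3, tested on 2000 simulated regions, all placed correctly (100%), and checked with bedtools 2.31.1, which gave the same 2293 peaks. All simulated peaks lay within 1 kb of a region, so the simulation could not show false hits in the overlap within 1 kb. Wilson intervals came from scipy 1.17.1 and figures from matplotlib 3.10.9. Named regions follow a written rule: the 10 widest H3K4me2 regions with the most peaks, the first 5 peaks in the list, on SW480 FOXA2 and on SW480 H3K27ac, the 5 farthest from SW620 H3K27ac, and the 5 widest regions free of it and of H3K4me3. The peaks and comparisons were chosen with earlier results of these data known, and distances between centres were added after the headers were read. Motifs, sequences and genes were not analysed here, since the reference tables are on another build.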

Additional observations from a re-analysis of the deposited data

How the results depend on the processing

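No paired analysis was possible because each group has 1 library, and for that reason no replicate could be left out. The score is constant, so no stricter threshold could be set. The first-listed 50% of the FOXA2 list was used as a shorter list, with no claim that it holds the stronger peaks. Of 114 recomputed values, 77 stayed within the 95% interval of the reported one (for the number of peaks, within 1.5 times) and 37 did not. The order of the 2 shares of H3K4me2-only regions with a FOXA2 peak, higher without SW480 H3K4me2, was the same in all 9 settings.

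When the peak centre had to lie in the region, or 50% of the peak, 85.1% of the peaks had a free region, the median region width was 1509 bp, the median position 0.322 and the share of regions without SW480 H3K4me2 that held a peak 20.01%. When H3K27ac and H3K4me3 within 1 kb also excluded a peak, the peaks were 17.0% of the list, 97.0% of them had a free region, and the median width was 1291 bp. The first-listed 50% alone held 1310 peaks, 21.2% of it, with 2.60% on SW480 FOXA2, 0.916% on SW620 H3K36me3, 2.29% sharing a region, a median width of 1517 bp, 33.3% less than 100 bp from the region centre (a share added after the data were seen), and 12.5% and 6.96% of regions without and with SW480 H3K4me2 holding a peak, fewer by construction. With peaks trimmed to the SW480 width, 87.9% had a free region. With equal numbers of the widest histone regions, 36.4% lay on SW480 H3K4me2, 61.4% on none of the 3 marks, and 23.4% of regions without SW480 H3K4me2 held a peak. With SW480 regions within 1 kb counted, 37.7% lay on H3K4me2, 18.3% on H3K27ac and 60.2% on none. In a setting added after the data were seen, with H3K4me2 regions of the smallest width left out, the peaks were 13.5% of the list, with 38.9% on SW480 H3K4me2, 16.2% on SW480 H3K27ac, 58.5% on none, 88.6% with a free region, 3.95% sharing one, a median width of 1587 bp, a median position of 0.312, 60.6% in the first-listed 50%, and 26.8% of regions without SW480 H3K4me2 holding a peak. Other causes of these shifts were not tested. A missing mark is a missing call, and its depth is that of 1 library.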
